A study of Mus musculus with 2 samples.

Results

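Prrc2a and 7 further genes without an immune role lie in or beside the major histocompatibility complex (MHC) region of mouse chromosome 17. The 7 are Cd320, Wdr46, Fkbpl, Abhd16a, Bag6, Mrps18b and Rpp21. All 8 were taken by gene ID from a window of 33.8 to 37.0 Mb on GRCm38. They are 8 of the 44002 rows of the deposited expression table. The 8 genes were selected on their levels in both libraries and the ratio of BPA over control, so every difference given for them is a description and no test is made on them. By position, Cd320 and Wdr46 lie before H2-K1, the first H2 gene of the window, and the other 6 genes lie between H2-K1 and H2-M5, the last gene of the window.

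The study sequenced poly(A) RNA of testes from balb/c mice at postnatal day 45. One group was exposed to bisphenol A (BPA), a building block of plastics that can act like an estrogen, and the other is the control, whose label names no treatment. In each group the material of 3 samples was mixed into 1 library, so the design has 1 BPA library and 1 control library, and no spread within a group was measured. The labels give no dose, route or duration of exposure, nor whether the 3 samples were 3 animals.

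The MHC region is known for antigen presentation, and in mouse its classical genes carry the name H2. Between them lie many genes that act in every cell, in RNA handling, protein folding, translation and metabolism. Prrc2a encodes a large proline-rich RNA-binding protein that can recognise N6-methyladenosine (m6A) in RNA. Bag6, its neighbour, encodes a chaperone that guides newly made membrane proteins and faulty proteins, and spermatogenesis in mouse requires it.

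The promoters of 5 of the genes are printed first, because neighbouring genes are compared below. Prrc2a and Bag6 are adjacent, the first 2-fold apart between the libraries and the other not. Abhd16a is the other abundant gene that was higher in the BPA library. The Wdr46 window reaches into the short gap to a gene read in the opposite direction. The Mrps18b window crosses such a gap and covers the first bases of the neighbour Ppp1r10. Each window holds 300 bases of the RefSeq sequence of GRCm38.p6, written 5′ to 3′ on the gene's own strand. A RefSeq start site is at base 251. For Mrps18b this site is the start of the gene span given below, and for the other printed genes it lies inside the span. The whole Prrc2a window lies inside the span of Prrc2a, so its motifs are not upstream of that span. The reference is not the balb/c sequence. Capitals mark matches to the motifs spelled out after the sequences. The windows are chr17:35164828-35165127 on the minus strand for Prrc2a, chr17:35134963-35135262 on the plus strand for Bag6 and chr17:35089041-35089340 on the plus strand for Abhd16a. Those of Wdr46 and Mrps18b are chr17:33940473-33940772 on the plus strand and chr17:35916391-35916690 on the minus strand.
Prrc2a: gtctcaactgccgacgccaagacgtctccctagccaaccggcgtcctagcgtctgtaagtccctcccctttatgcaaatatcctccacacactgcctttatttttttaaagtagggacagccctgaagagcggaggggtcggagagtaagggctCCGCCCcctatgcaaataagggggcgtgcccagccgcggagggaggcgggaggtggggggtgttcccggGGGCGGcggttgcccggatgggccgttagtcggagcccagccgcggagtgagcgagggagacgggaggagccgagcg
Bag6: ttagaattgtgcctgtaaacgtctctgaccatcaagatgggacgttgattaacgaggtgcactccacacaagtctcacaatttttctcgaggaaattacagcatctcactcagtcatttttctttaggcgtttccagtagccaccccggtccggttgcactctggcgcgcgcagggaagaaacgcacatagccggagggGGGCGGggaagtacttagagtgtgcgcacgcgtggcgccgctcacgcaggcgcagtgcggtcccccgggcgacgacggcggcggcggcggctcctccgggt
Abhd16a: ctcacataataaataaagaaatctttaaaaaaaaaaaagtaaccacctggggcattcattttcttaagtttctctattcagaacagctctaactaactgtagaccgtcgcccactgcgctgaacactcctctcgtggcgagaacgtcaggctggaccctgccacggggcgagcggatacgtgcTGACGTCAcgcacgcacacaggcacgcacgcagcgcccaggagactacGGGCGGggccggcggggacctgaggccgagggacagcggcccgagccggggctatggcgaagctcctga
Wdr46: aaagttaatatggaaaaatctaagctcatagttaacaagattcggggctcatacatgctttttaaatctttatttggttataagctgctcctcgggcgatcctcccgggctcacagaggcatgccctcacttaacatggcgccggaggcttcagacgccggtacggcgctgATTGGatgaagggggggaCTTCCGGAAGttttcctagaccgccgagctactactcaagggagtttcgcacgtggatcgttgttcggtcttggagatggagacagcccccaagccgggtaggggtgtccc
Mrps18b: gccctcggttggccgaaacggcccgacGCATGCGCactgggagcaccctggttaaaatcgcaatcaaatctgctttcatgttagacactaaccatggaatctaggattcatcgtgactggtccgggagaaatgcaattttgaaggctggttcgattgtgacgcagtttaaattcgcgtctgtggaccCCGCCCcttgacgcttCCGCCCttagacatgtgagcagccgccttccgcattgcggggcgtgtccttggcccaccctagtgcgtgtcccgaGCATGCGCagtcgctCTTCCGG

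RefSeq windows were found for 7 of the 8 genes, and Rpp21 is named only. Motifs were searched as exact letters on both strands, and shares refer to all 32851 promoter windows of the same length. The GC box GGGCGG, found in 35.7% of windows, occurs at bases 155 and 224 of the Prrc2a window, at base 200 in Bag6, at base 232 in Abhd16a and at bases 188 and 204 in Mrps18b. Abhd16a carries the cyclic AMP response element TGACGTCA at base 184, a motif held by 1.79% of windows. Wdr46 has overlapping matches to the ETS core CCGGAAG at bases 190 and 193, one on each strand, and CCAAT on the minus strand at base 172; these letters occur in 8.86% and 37.4% of windows. Mrps18b has an ETS core at base 294 and the NRF1 core GCATGCGC at bases 28 and 279, an NRF1 core that 2.71% of windows hold. The match at base 28 lies inside the span of Ppp1r10. None of the 5 windows holds TATAAA, present in 13.6% of windows, or the estrogen response half-site AGGTCA, present in 16.3%. Of the windows not printed, the first of 2 for Cd320 holds AGGTCA at base 128, the second GC boxes at bases 4, 14 and 191 and CCAAT on the minus strand at base 181, and that of Fkbpl holds CCAAT on the minus strand at base 233. The Prrc2a window was 64.0% G and C with 25 CpG dinucleotides, Bag6 59.3% with 30, Abhd16a and Mrps18b 57.0% with 25 each, and Wdr46 52.7% with 18, where the median of all windows was 52.7% and 7. GC boxes stood in windows of genes that were higher, lower and close to equal in the BPA library, and none was matched in those of Wdr46 and Fkbpl.

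Values are CPM, reads scaled to 1 common total per library, and the full scale stands for 45377700 BPA reads and 41801900 control reads. Values under 1 CPM were written as 0 by the authors, and where the other library reached 1 CPM they were filled in from the deposited fold change. The tissue label fits its markers: 8 spermatid genes summed to 16398 CPM in BPA testes and 15374 CPM in control testes, and 8 Sertoli cell genes to 1217 and 1061 CPM, all within 2-fold. The 8 epididymis markers were under 1 CPM or had no value in both. Of 9 adipose genes, 7 were 2-fold or more lower in the BPA library. The adipose list ran from 0.375 CPM (Cidec) to 15.4 CPM (Adipoq) in the BPA library and from 1.51 CPM (Lep) to 24.4 CPM (Fabp4) in the control library, with sums of 29.0 and 98.7 CPM. The BPA values of Cidec, Cfd and Lep were deposited as 0 and filled in as above, and no other marker of the list is listed at 0. The part of fat tissue in the values below was not tested. In bulk tissue, fewer cells of a type and less RNA per cell cannot be told apart.

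In map order, Cd320, Wdr46 and Fkbpl were lower in the BPA library, Abhd16a was higher, Bag6 lay close to equal, Prrc2a was higher, Mrps18b was lower and Rpp21 was higher. By the size rule, 2-fold or more on log2(CPM + 0.1) with at least 1 CPM in the higher library, 3 of the 8 were higher and 4 were lower. Over all 19389 genes at this level the rule took in 3.28%, 1.32% on the higher side and 1.95% on the lower side. The choice of the 8 genes fixes their count, so nothing is read from that difference. With 2-fold required of the nearer bound of the counting interval, 2 of the 8 were higher and 4 lower, where 1.35% of all genes met that rule. An exact binomial test of the reads, adjusted over all genes, called 34.8% of all genes, and it compares the libraries and not the conditions. Its outcome for the 8 genes is not given, since they were selected on these values. All 8 were above 1 CPM in both libraries and passed the filter on low values. Summed, they took 320 CPM in BPA testes and 205 CPM in control testes, and without Prrc2a the sums were 109 and 117 CPM.

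**Figure D1:**
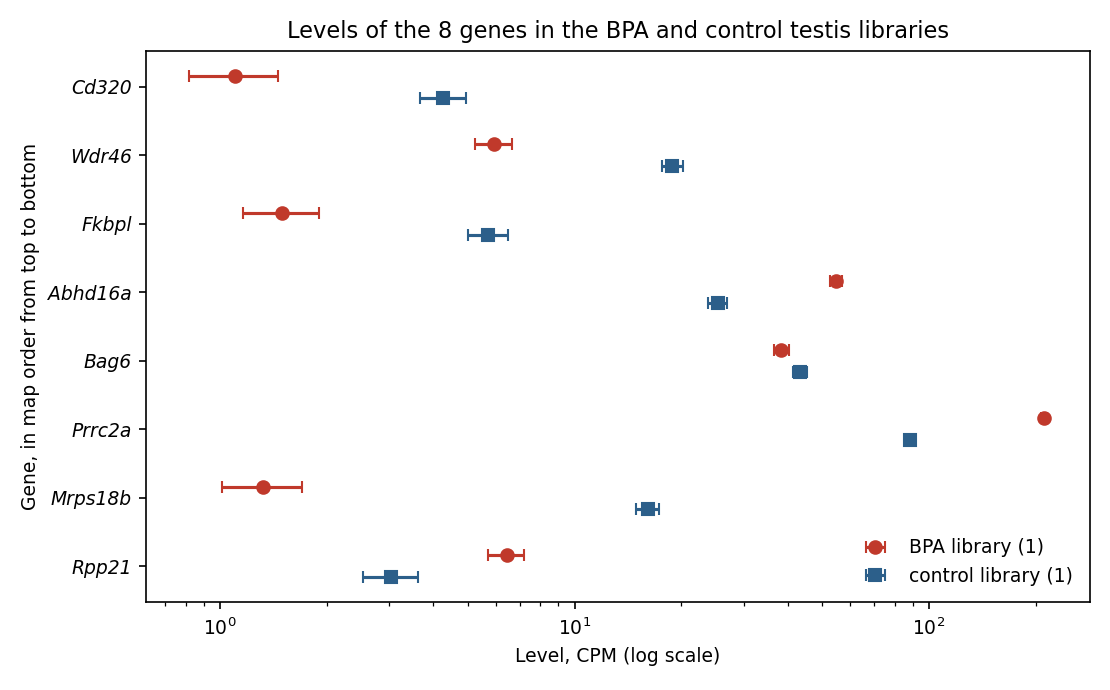
Level of each of the 8 genes in CPM on a log scale, from Cd320 at the top to Rpp21 at the bottom in map order; red circles are the BPA library, blue squares the control library, and bars are exact 95% counting intervals. The intervals of both libraries are apart for each of the 8 genes, by little for Bag6, where they run from 36.6 to 40.2 CPM in the BPA library and from 41.3 to 45.3 CPM in the control library.

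Among the genes that act on RNA, Prrc2a had the most reads. Prrc2a (gene ID 53761, chromosome 17, 35149076 to 35165321, minus strand) stood at 211 CPM in BPA testes, from 9571 reads, and at 88.6 CPM in control testes, from 3704 reads. The BPA library was thus 2.38-fold higher, with a 95% counting interval of 2.29 to 2.47. That interval, like those of all ratios given here, is exact (Clopper-Pearson), and the intervals of levels are exact Poisson intervals. Both kinds cover counting error only, since PCR copies are not independent molecules and the samples were pooled. Of the 2400 other genes whose mean reached 100 CPM, 1 had a log2 ratio at least as far from 0 as the 1.25 of Prrc2a. Prrc2a was selected on this ratio, so nothing is read from that place. In the authors' deposited table Prrc2a has a log2 fold change of 1.25, a p-value of 6.41e-13 and a q-value of 1.70e-09. It is the only one of the 8 genes among the 28 genes that the authors' deposited table calls. Those 28 are 0.0956% of the 29279 genes with a p-value there. The authors' p-values and q-values, here and below, come from 1 library per group, so no spread within a group stands behind them. They compare the libraries and not the conditions. Since the 8 genes were selected on their ratios, these values are copied as a description only.

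Wdr46 encodes a nucleolar WD-repeat protein of small ribosomal subunit assembly. It (57315, 33940634 to 33949695, plus strand) stood at 5.93 CPM, 269 reads, in BPA testes and at 18.9 CPM, 790 reads, in control testes. The gene was 3.19-fold lower in the BPA library (2.77 to 3.67). Rpp21 encodes a protein subunit of RNase P, which trims the 5′ end of transfer RNA precursors. It (67676, 36255673 to 36257846, minus strand) had 6.43 CPM from 292 reads in BPA testes and 3.04 CPM from 127 reads in control testes. Rpp21 was 2.12-fold higher, and its counting interval of 1.71 to 2.63 reaches below 2-fold. With a pseudocount of 1 CPM its log2 ratio was 0.88 in place of 1.06, which no longer meets the size rule.

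Mrps18b encodes a protein of the small subunit of the mitochondrial ribosome. Mrps18b (66973, 35910380 to 35916440, minus strand) stood at 1.32 CPM in BPA testes, from 60 reads, and at 16.1 CPM in control testes, from 672 reads. It was 12.2-fold lower in the BPA library (9.33 to 16.1), farther apart than any other of the 8 genes, and the only one past 4-fold. Among 3356 other genes with a mean from 4 to 10 CPM, 6 had a log2 ratio at least as far from 0, 0.179%. In their own level ranges the like share was 0.933% for Cd320, 0.488% for Wdr46 and 0.896% for Fkbpl. It was 0.726% for Abhd16a and 1.79% for Rpp21. These genes were selected on their ratios, so nothing is read from the shares. The authors' deposited table gives Mrps18b a log2 fold change of -3.60, a p-value of 0.000151 and a q-value of 0.0869.

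The chaperone genes differed from each other. Bag6 (224727, 35135156 to 35147321, plus strand) stood at 38.3 CPM, 1740 reads, in BPA testes and at 43.3 CPM, 1810 reads, in control testes. It was 1.13-fold lower (1.06 to 1.21), a ratio that 26.6% of the 7577 other genes with a mean from 10 to 100 CPM matched or passed in size. Fkbpl encodes an FK506-binding-protein-like partner of the chaperone Hsp90. It (56299, 34644814 to 34646817, plus strand) stood at 1.499 CPM, 68 reads, in BPA testes and at 5.72 CPM, 239 reads, in control testes, 3.82-fold lower (2.90 to 5.07).

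Abhd16a and Cd320 act in lipid and vitamin metabolism. Abhd16a encodes a membrane hydrolase that makes lysophosphatidylserine. It (193742, 35089234 to 35102987, plus strand) had 54.8 CPM from 2485 reads in BPA testes and 25.4 CPM from 1061 reads in control testes, 2.16-fold higher (2.01 to 2.32). The authors' deposited table gives Abhd16a a p-value of 0.000865 and a q-value of 0.366. Cd320 encodes the cell-surface receptor that takes up vitamin B12 bound to transcobalamin. Cd320 (54219, 33843091 to 33849774, plus strand) had 1.10 CPM from 50 reads in BPA testes and 4.26 CPM from 178 reads in control testes, 3.86-fold lower (2.81 to 5.40). Cd320, Wdr46, Fkbpl, Bag6 and Rpp21 each have a q-value of 0.99996 in the authors' deposited table, with p-values from 0.00778 for Wdr46 to 0.591 for Bag6.

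**Figure D2:**
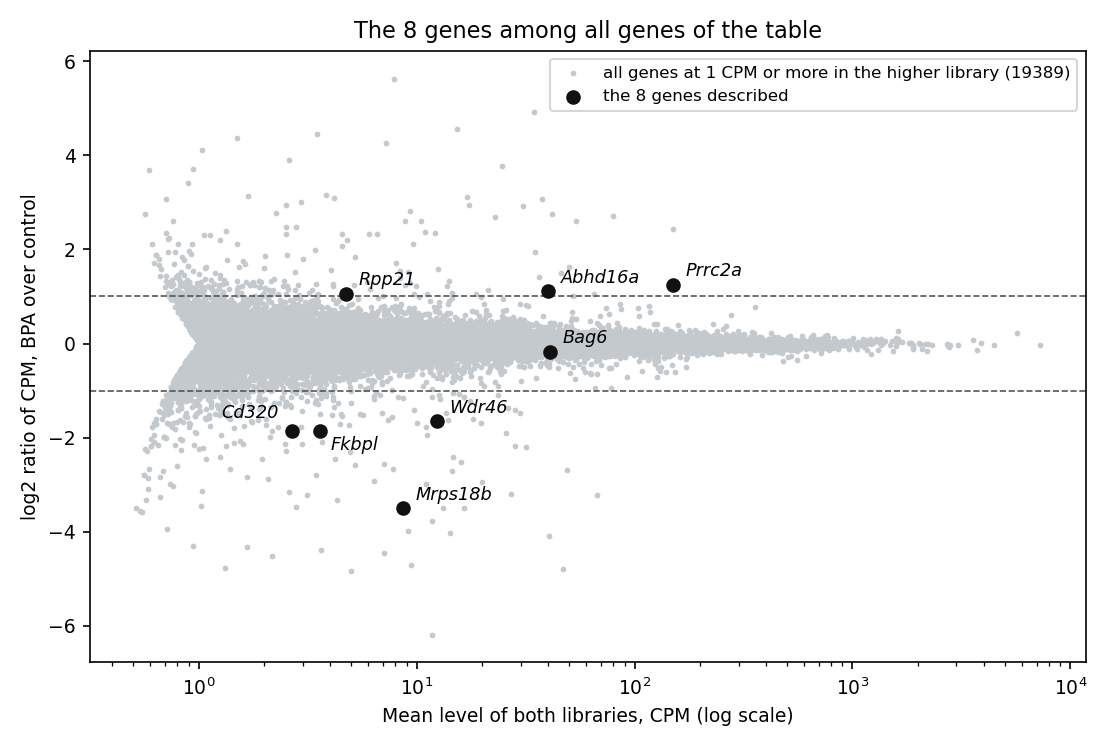
Log2 ratio of CPM, BPA over control, against the mean level of both libraries on a log scale, for 19389 genes (grey) and the 8 genes (black); dashed lines mark 2-fold. Prrc2a stands at the sparse right side with a log2 ratio of 1.25, Bag6 lies inside the grey band at -0.17, and Mrps18b is lowest of the 8 at -3.51.

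Per kilobase of exon, Prrc2a led in both libraries, at 27.6 CPM per kb in BPA testes and 11.6 CPM per kb in control testes. Next in the BPA library came Abhd16a at 17.01, Bag6 at 6.17, Rpp21 at 5.28, Wdr46 at 2.05, Fkbpl at 1.12, Mrps18b at 0.633 and Cd320 at 0.382 CPM per kb. There the counting intervals of Bag6 and Rpp21 overlapped, as did those of Mrps18b and Cd320, while all other neighbours in the order were apart. In the control library Abhd16a at 7.88, Mrps18b at 7.70, Bag6 at 6.97 and Wdr46 at 6.54 CPM per kb followed, each overlapping the next, ahead of Fkbpl at 4.28, Rpp21 at 2.49 and Cd320 at 1.48. Mrps18b thus held rank 7 of 8 in the BPA library and rank 3 of 8 in the control library. The middle of the order was narrow in the control library and spread wide in the BPA library. The choice of the 8 genes on their ratios can change such a spread, so nothing is read from it.

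Partners and relatives of the 8 genes, taken from lists of known complexes and families, were described by the same rule. Of 157 such genes at 1 CPM or more, without the 8, 2 were 2-fold apart, 1.27%. The share was 2.35% over all coding genes at this level and 0.858% over all genes with a mean from 10 to 100 CPM. Over all 19389 genes, noncoding ones included, it was 3.28%, with a median log2 ratio of 0.00. The relatives of Prrc2a were close to equal: Prrc2b stood at 35.9 CPM in BPA testes and 36.2 CPM in control testes, and Prrc2c at 74.2 and 75.3 CPM. All 21 writers, erasers and readers of m6A were within 2-fold, with a median of -0.04 and a range from -0.26 for the reader Ythdf2 to 0.38 for Igf2bp1. The other 7 genes of the Bag6 complex and tail-anchored protein targeting that reached 1 CPM were also within 2-fold, with a median of -0.10. Ubl4a, a Bag6 partner, stood at 2.80 CPM in BPA testes and 3.68 CPM in control testes. The other 5 BAG domain genes had a median of -0.06, with Bag2 at -0.28 and Bag4 at -0.27.

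The lists of the lower genes had the same form. Of 33 genes for the mitochondrial small ribosomal subunit, all at 1 CPM or more, Mrps18b was the only one 2-fold or more lower. Mrps23 was 2.08-fold higher (1.82 to 2.39), at 15.2 CPM in BPA testes and 7.27 CPM in control testes. Mrps10 stood at 10.9 CPM in BPA testes and 6.005 CPM in control testes, and without Mrps18b the list's median log2 ratio was 0.06. Among 39 genes of the small subunit processome, which builds the small ribosomal subunit, Wdr46 was the only one 2-fold apart. The next in size was Utp14a with a log2 ratio of -0.54, then Krr1 with -0.41, and the median without Wdr46 was 0.02.

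Of 14 FK506-binding protein genes at 1 CPM or more, Fkbpl was again the only one 2-fold apart, with Fkbp5 at a log2 ratio of -0.57 and Fkbp9 at 0.26. Of 14 genes for vitamin B12 uptake and use, Cd320 was the only one 2-fold apart. The endocytic receptor gene Lrp2 stood at 1.79 CPM in BPA testes and 2.87 CPM in control testes, and Amn, which anchors the intestinal B12 receptor, at 10.5 and 7.34 CPM. Among 10 RNase P and RNase MRP protein genes, Rpp21 alone was 2-fold apart, with Rpp40 at a log2 ratio of 0.51 and Pop4 at -0.34. In the Abhd family, 2 of 18 genes were 2-fold or more higher. Beside Abhd16a this was Abhd18, at 1.94 CPM in BPA testes and 0.742 CPM in control testes, 2.62-fold higher (1.72 to 4.08).

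**Figure D3:**
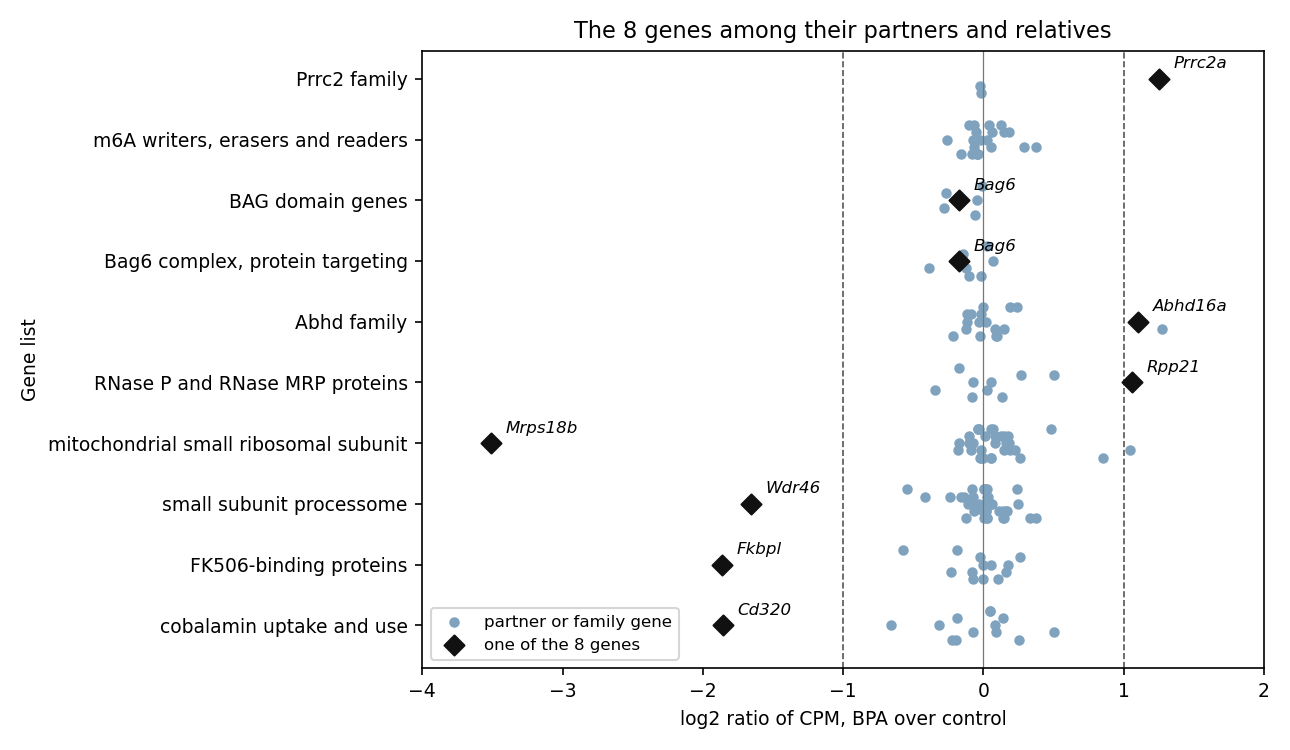
Log2 ratio of CPM, BPA over control, for genes at 1 CPM or more in 10 lists of partners and relatives, 1 point per gene; black diamonds are the 8 genes, with Bag6 in 2 lists, and dashed lines mark 2-fold. Among the other genes shown, Abhd18 and Mrps23 alone lie outside the dashed lines.

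Overlap with neighbours was looked up in the GENCODE annotation of GRCm38, since the protocol describes no step that marks the strand. Exons of 7 of the 8 genes overlap no exon of another annotated gene, and none of the 50-base words of these 7 occurs in a gene elsewhere. Mrps18b is the exception: 638 of its 2089 exonic bases, 30.5%, overlap Gm16279, a long noncoding RNA on the opposite strand. In addition, 14.6% of the 50-base words of Mrps18b occur at other loci, mainly in the processed pseudogene Gm13552 on chromosome 2, so the reads of Mrps18b are uncertain. The RefSeq model of Gm16279, the one matched to the deposited gene ID, is shorter, and its span shares 141 bases with that of Mrps18b. That gene ID stood at 2.14 CPM in BPA testes and 2.01 CPM in control testes. The small nucleolar RNA gene Gm23442 lies inside the span of Prrc2a, 134 bases long, and touches none of its exons.

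By RefSeq spans, the coding genes next to the 8 did not overlap them, at gaps from 71 to 65521 bases. Besides the pair of Bag6 and Prrc2a, 14 genes are direct neighbours; 7 of these reached 1 CPM, 5 were under 1 CPM in both libraries and 2 had no value. Prrc2a and Bag6 lie tail to tail with 1754 bases between their ends. On the other side of Prrc2a, 5664 bases away, Aif1, a macrophage gene, stood at 20.4 CPM in BPA testes and 3.95 CPM in control testes. Aif1 was 5.18-fold higher (4.38 to 6.15) and was the one neighbour of the 7 that met the size rule. All 8 macrophage markers of a list without Aif1 were within 2-fold with a median log2 ratio of 0.05. The authors' deposited table gives Aif1 a q-value of 0.226.

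Mrps18b and the gene in front of it differed although their starts lie 71 bases apart. Ppp1r10, a regulator of protein phosphatase read in the opposite direction, stood at 77.2 CPM in BPA testes and 56.8 CPM in control testes, a log2 ratio of 0.44 against -3.51 for Mrps18b. Atat1, the tubulin acetyltransferase gene 293 bases past the end of Mrps18b, stood at 12.8 CPM in BPA testes and 9.88 CPM in control testes. The 2 genes beside Mrps18b therefore lay on the other side of equality, both within 2-fold.

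Wdr46 showed a like contrast with Pfdn6, a prefoldin subunit gene that starts 290 bases away in the opposite direction. Pfdn6 stood at 1.98 CPM in BPA testes and 1.29 CPM in control testes, a log2 ratio of 0.58 against -1.66 for Wdr46. Beyond the end of Wdr46, at 216 bases, B3galt4 was under 1 CPM in both libraries. Atf6b, 328 bases past the end of Fkbpl, stood at 8.57 CPM in BPA testes and 10.9 CPM in control testes. Trim39, 1025 bases from Rpp21, had 6.13 CPM in BPA testes and 4.40 CPM in control testes, and Ndufa7, 4774 bases before Cd320, had 1.83 and 2.30 CPM.

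Both direct neighbours of Abhd16a, Ly6g6f and Ly6g5c, were under 1 CPM in both libraries, as were Kifc1 beside Cd320 and H2-T3 beside Rpp21. Prrt1 beside Fkbpl and Apom beside Bag6 had no value. Some genes of the window that most cells use, Ddx39b, Ring1, Neu1, Clic1 and Ddah2, are also listed at 0 in both libraries, so a listed 0 here need not mean an unexpressed gene. These 5 were named after their values were seen.

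Distances between the 8 genes run from 1.75 kb, between Bag6 and Prrc2a, to 745 kb, between Prrc2a and Mrps18b. Between Cd320 and Wdr46, both lower and 90.9 kb apart, lie 5 coding genes at 1 CPM or more, none of them 2-fold apart. Between Abhd16a and Bag6, 32.2 kb apart, 1 coding gene reached 1 CPM and was within 2-fold. Of the 11 such genes between Wdr46 and Fkbpl, 4 were 2-fold apart, and of the 18 between Prrc2a and Mrps18b, 3 were. The genes 2-fold apart therefore do not form an unbroken run.

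**Figure D4:**
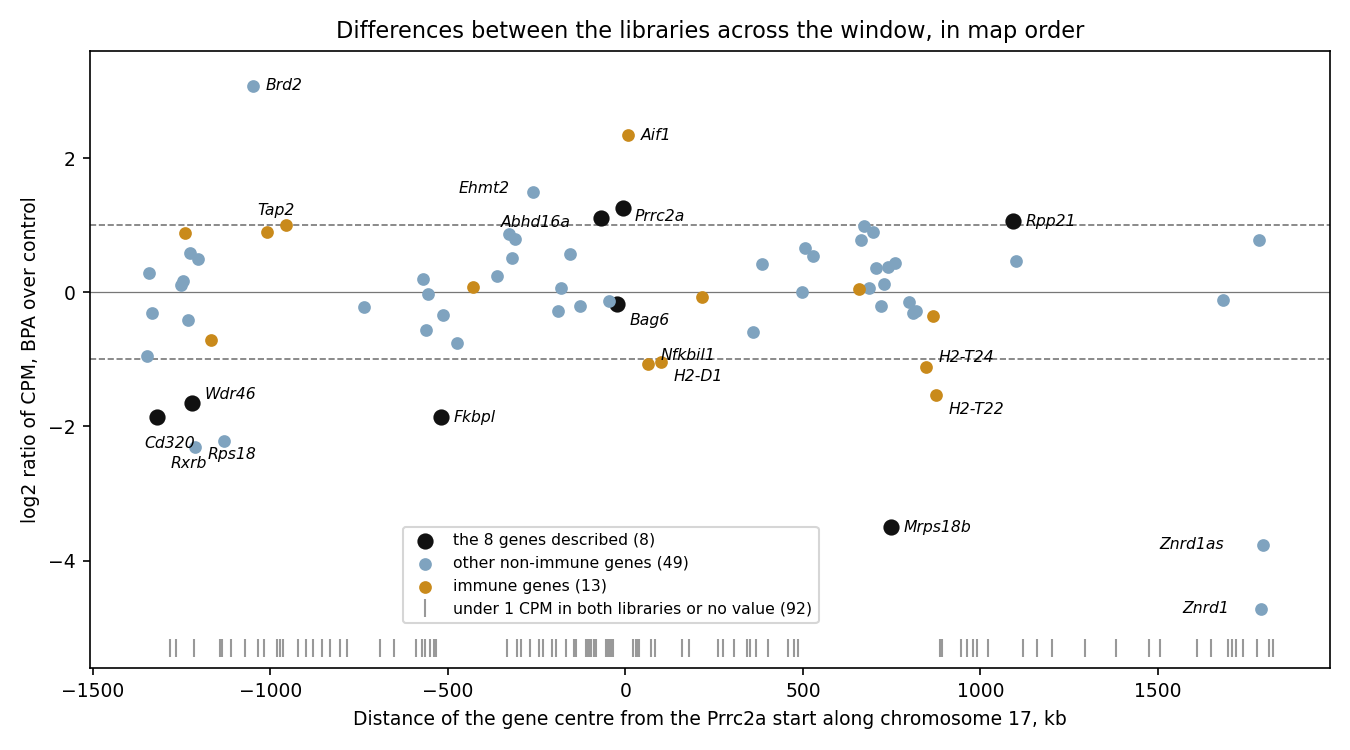
Log2 ratio of CPM, BPA over control, of the coding genes of the window against the distance of their centre from the Prrc2a start in kb; black points are the 8 genes, blue points 49 other non-immune genes, gold points 13 immune genes, and grey ticks 92 genes under 1 CPM in both libraries or without a value. Genes higher and lower than the dashed 2-fold lines stand in several parts of the window, with stretches of genes within the lines between them. From H2-D1 to Mrps18b, no gene at 1 CPM or more between them lies past the lines.

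The window holds 162 coding genes, of which 70 reached 1 CPM, 62 were under 1 CPM in both libraries and 30 had no value. Of the 70 genes, 7 were 2-fold or more higher and 12 lower in the BPA library, 27.1% together, where the share over all coding genes was 2.35%. The 8 genes make up 7 of these 19. Among the other 49 non-immune genes at this level, 2 were higher and 4 lower, 12.2%. Among 13 immune genes, 2 were higher and 4 lower, 46.2%. Of these, Tap2, Nfkbil1 and H2-T24 had a mean under 1 CPM, a range where 32.1% of all genes met the rule. On chromosome 17 outside the window 21 of 604 coding genes met the rule, 3.48%, and on the other autosomes and the X chromosome the share ran from 0.781% on chromosome 13 to 4.12% on the X chromosome. No test was made of these shares, since the window was chosen with the values known.

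Of the 6 other non-immune genes, the bromodomain gene Brd2 stood at 67.0 CPM in BPA testes and 7.85 CPM in control testes. The histone H3 lysine 9 methyltransferase gene Ehmt2 stood at 67.5 CPM in BPA testes and 23.99 CPM in control testes, 2.82-fold higher (2.62 to 3.03), and it lies between Fkbpl and Abhd16a. With Prrc2a these are the 3 genes of the window that the authors' deposited table calls. All 28 calls there, and no other gene, have a q-value under 0.005 and a log2 fold change above 1 in size. With a q-value under 0.05 alone, 6 window genes stand in the authors' deposited table: these 3, Ppp1r11 with 3.38e-09, Znrd1as with 0.00512 and Znrd1 with 0.0101. Ppp1r11, named after its values were seen, stood at 451 CPM in BPA testes and 264 CPM in control testes, 1.71-fold higher (1.67 to 1.75) and so within 2-fold. The ribosomal protein gene Rps18, close to Wdr46, was lower at 1.61 CPM in BPA testes and 8.32 CPM in control testes, with 19.6% of its words shared with other loci. Rxrb, a retinoid receptor gene, was lower on 14 reads in BPA testes and 75 in control testes. At the far end, the RNA polymerase I subunit gene Znrd1 was 30.6-fold lower (20.8 to 46.7), at 0.595 CPM in BPA testes and 18.2 CPM in control testes, and its neighbour Znrd1as was 14.4-fold lower (11.3 to 18.7), at 1.52 CPM in BPA testes and 21.96 CPM in control testes.

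The immune genes that met the rule were Aif1 and Tap2 on the higher side and Nfkbil1, H2-D1, H2-T24 and H2-T22 on the lower side. Tap2 had 61 reads in BPA testes and 26 in control testes, and its log2 ratio of 1.00 fell under 2-fold when the libraries were rescaled. Nfkbil1 had 26 reads in BPA testes and 55 in control testes, H2-T24 had 21 and 47, and H2-D1 had 93 and 180. The counting intervals of Tap2, Nfkbil1, H2-T24 and H2-D1 all start below 2-fold, at 1.35, 1.42, 1.42 and 1.63. H2-T22 stood at 2.29 CPM in BPA testes and 6.82 CPM in control testes, with 34.7% of its words at other loci. Of the 19 genes of the window that met the rule, 7 have exons that overlap another gene, against 33 of all 70, and 11 have neither such an overlap nor more than 10% of their words elsewhere.

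Just inside and outside the limits, values were as follows. Kank3, the first gene inside the low end, had 363 reads in BPA testes and 653 reads in control testes, a log2 ratio of -0.96. Angptl4, the last gene outside, was under 1 CPM in both libraries, and the nearest gene outside at 1 CPM or more, Rab11b, stood at 10.07 CPM in BPA testes and 7.30 CPM in control testes. At the high end H2-M5 inside and Zfp57 outside were under 1 CPM in both libraries, and Gabbr1 outside had 1.08 CPM in BPA testes and 0.598 CPM in control testes. The tubulin gene Tubb5, named after its value was seen, lay just short of 2-fold at 26.2 CPM in BPA testes and 13.1 CPM in control testes.

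Over the whole table, genes of low level were 2-fold apart more often than abundant ones, so the window was also described by level. The 8 genes were left out of the window here, because they were selected on their ratios. From 1 to 4 CPM, where Cd320 and Fkbpl lie, 2 of the 18 other window genes met the rule, 11.1%, against 5.21% of 5358 genes of the table. From 4 to 10 CPM, the range of Mrps18b and Rpp21, 3 of 12 did, 25%, against 1.97% of 3357 genes. From 10 to 100 CPM, the range of Wdr46, Abhd16a and Bag6, 4 of 21 did, 19%, against 0.858% of 7578 genes. At 100 CPM and more, the range of Prrc2a, 0 of the 5 other window genes met the rule, against 2 of 2401 genes of the table, 0.0833%, of which Prrc2a is 1. Below a mean of 1 CPM, where none of the 8 genes lies, 3 of 6 window genes met it, against 32.1% of the table. No test was made of these small counts.

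**Figure D5:**
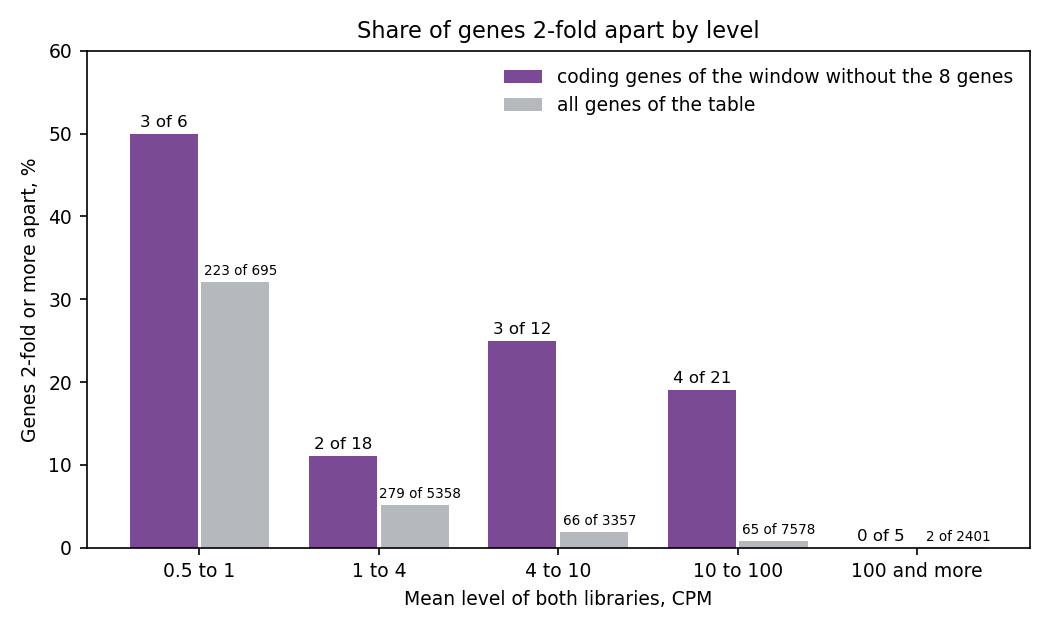
Share of genes 2-fold or more apart in percent, by mean level of both libraries in CPM; purple bars are coding genes of the window without the 8 genes, grey bars all genes of the table, and the numbers give how many of the genes at 1 CPM or more met the rule. The bins hold 5 to 21 window genes, and the bin at 100 CPM and more has no purple bar, with 0 of 5 genes.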

How the data were processed

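Poly(A) RNA of mouse testis was sequenced in 1 BPA library and 1 control library. Build mm10, HISAT2 2.0.4 and HTSeq 0.6.1 are named per the submitters' processing notes. Annotation, strand setting, scaling and test program were not given in the sources used here. Deposited values are headed as read counts but are CPM, since the BPA column sums to 995266 and the control column to 997834. The deposited log2 fold change is BPA over control, and the p-value and q-value beside it are the authors' own, from a test whose program is not named. No count model was fitted.

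All deposited CPM values above 0 are whole multiples of 1 step per library, and the step was taken as 1 read. CPM values under 1, deposited as 0, were filled from the deposited fold change for 812 BPA values and 592 control values. The design had assumed values without such a limit. Another 10618 rows have no value. Ratios of CPM carry exact 95% binomial intervals of the reads (Python 3.11.15, pandas 2.3.3, SciPy 1.17.1). The log2 ratio uses a pseudocount of 0.1 CPM, and 2-fold with 1 CPM or more in the higher library is the size rule. With 1 library per group no test was made between conditions.

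Symbols and spans, and so the gaps between genes, came from RefSeq, matched for 40269 of 41571 numeric gene IDs. Exons, strands and 50-base words came from GENCODE on GRCm38. The size rule and the intervals of ratios were run on simulated Poisson reads, which hold no spread between samples and no PCR copies. That run checks the calculation only, not how the rule behaves on pooled libraries. The 8 genes and the lists were chosen with earlier results of these data known. Named are the 8 genes, their direct and overlapping neighbours, window genes that met the size rule, the genes at the window's ends, the 2-fold genes of each list with up to 2 further genes of the largest log2 ratio in size, and marker genes. Alternatives covered scaling, pseudocount, floor, fold, interval bound, gene class and overlap.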

Additional observations from a re-analysis of the deposited data

How the results depend on the processing

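On each of the 8 genes 5 alternatives were run: 2 scalings, pseudocounts of 1 and 0.01 CPM, and listed zeros taken as 0. The last was chosen after seeing the data. All directions held, but none of these alternatives could have turned them. A pseudocount added to both libraries keeps the sign of a log2 ratio, listed zeros touch none of the 8 genes, and the scalings were too small. Of these 40 values 3 moved by more than their counting interval, all with a pseudocount of 1 CPM, which gave log2 ratios of -1.32 for Cd320, -1.43 for Fkbpl and -2.88 for Mrps18b. The scalings shifted all log2 ratios by -0.003 and -0.004. At 4-fold, 0 of the 8 genes were higher and 1 was lower. Over all genes, 256 genes were higher and 379 lower; a 1.5-fold rule gave 828 and 1042, and 4-fold 55 and 85. A floor of 4 CPM gave 80 and 103, pseudocount 1 CPM 82 and 123, and the nearer interval bound 100 and 162. The counts were 686 and 937 with listed zeros, 1938 and 2582 with no floor, and 3362 and 3380 by an exact binomial test of the reads, which compares libraries and not conditions. In the window, 7 higher and 12 lower genes became 2 and 5 at 4-fold, 14 and 22 with no floor, and 27 and 25 by that test. At 1.5-fold 16 window genes were higher, and without genes whose exons overlap another gene 7 were lower. No paired analysis was possible because each group has 1 library, and no library could be left out. Counting over other gene models could not be run without reads, so the exon overlap was given instead. Depth limits Cd320, Fkbpl and Mrps18b, which had 50 to 68 reads in the BPA library.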
